A study of Mus musculus with 6 samples.

Results

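The genes described here are 42 components of DNA replication and of the switch from G1 into S phase, chosen by name from the 49328 genes of the deposited table and matched through their Ensembl identifiers. By step they comprise 10 licensing genes, 4 genes of helicase activation, 6 polymerase and primase genes, 10 genes of the sliding clamp, its loader and strand maturation, 5 genes of nucleotide supply, 4 genes of chromatin assembly and 3 G1/S regulators. Each of the 42 was listed and each had at least 1 FPKM (fragments per kilobase of exon, scaled to the size of the library) in at least 3 of the 6 libraries, so that none was lost to the filter that left 11862 genes for testing.

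The RNA came from mesenchymal stromal cells (MSCs, adherent stromal cells of bone marrow), which were obtained by digesting the marrow of CB6F1 mice with acute graft-versus-host disease (aGVHD, an attack of donor immune cells on the tissues of a transplant recipient) and were kept in DMEM of high glucose content with serum and antibiotics. There were 3 libraries of cells treated in vitro with an agent labelled only R, at 0.5 um as the labels write it, and 3 libraries of cells treated with the vehicle DMSO. Every library thus came from mice with aGVHD, and cells of healthy mice were not analysed here. The sources used here do not say what R is, how long it acted or whether each replicate had its own animal or culture, so that p-values measure the spread between these libraries, which may be technical.

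Before S phase, the origin recognition complex, CDC6 and CDT1 load rings of the subunits MCM2 to MCM7 on DNA, which is called licensing. CDC45 and the GINS complex then turn each ring into an active helicase, polymerase alpha with its primase starts the strands, polymerases delta and epsilon extend them on the clamp PCNA, and chromatin assembly factor 1 places histones on the new DNA. Many of the genes are transcribed at the G1/S boundary under E2F transcription factors, and their combined level is commonly read as a sign of how many cells of a culture are in cycle. In a bulk RNA sample, however, fewer cells in S phase and less RNA per such cell cannot be told apart.

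Libraries held an estimated 17980000 to 21750000 reads in R and 17070000 to 20010000 reads in vehicle, and a member was read between 69 times (Fen1 in R replicate 2) and 7155 times (Rrm2 in R replicate 2) per library. Transcripts of macrophages, the tissue phagocytes, were abundant. The FPKM of 18 macrophage markers summed to between 13126 and 16272 in the R libraries, against between 15946 and 21328 in the vehicle libraries. Each of the 18 passed the filter and none was at 0. In limma 4 of them (Fcgr1, Msr1, Itgam and Aif1) fell, against 4.43% of tested genes, and 0 rose, against 2.39%. The median log2 change of the 18 was -0.51. Of 16 stromal markers 13 passed the filter, and of these 13 only 1 fell and 0 rose, against the same 4.43% and 2.39% of tested genes. The 16 summed to between 1034 and 1481 FPKM in the R libraries, against between 839 and 1185 FPKM in the vehicle libraries. The stromal markers Thy1, Nt5e and Lepr were too low to be tested, with at most 0.688 FPKM in R and 1.58 FPKM in vehicle. Markers of T and NK cells summed to at most 7.62 FPKM in R and 14.4 FPKM in vehicle (Klrb1c being at 0), and 3 of these 12 passed the filter. Of the 3, 1 fell (against 4.43% of tested genes) and 0 rose, and their median log2 change was -1.02. Which cells the replication transcripts came from is not resolved in bulk RNA, and the part that the mixture of cells plays in the changes was not tested.

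Replication genes were, with 1 exception, lower on average in cells treated with R. Of the 42 members, 41 had a negative log2 change (R minus vehicle, on log2(FPKM + 1)), as did 50.7% of all tested genes. With library medians set equal, 40 were negative. Their median was -0.35, against a median of -0.0037 over all tested genes. In 28 members (66.7%) each of the 3 R values lay below each of the 3 vehicle values, which was the case in 15.5% of tested genes, in 1 they lay above (13.9% of tested genes) and in 13 the groups overlapped. Over all tested genes 29.3% had groups that did not overlap, in either direction. A total of 6 members fell past an adjusted p of 0.05 in limma (14.3%, against 4.43% of tested genes that fell and 6.82% that passed in either direction), namely Mcm3, Mcm5, Mcm6, Pola1, Pcna and Uhrf1, and 0 rose (2.39% of tested genes rose). At an unadjusted p of 0.05, 28 members were lower, against 12.6% of tested genes, and 1 was higher, against 11.4% (24% in either direction). The exception was Rrm2, the small subunit of ribonucleotide reductase, which had a log2 change of 0.76 and did not pass (limma adjusted p = 0.0696).

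**Figure D1:**
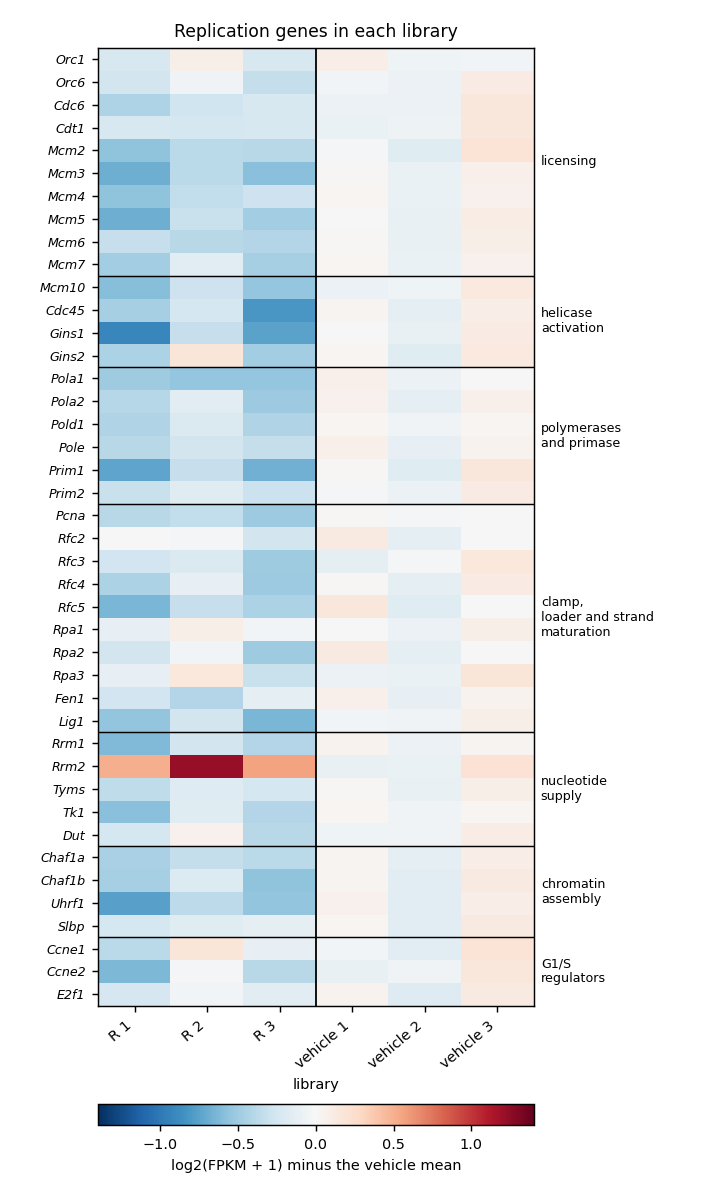
Level of each of the 42 replication genes (rows, grouped by step) in the 3 R and 3 vehicle libraries (columns), as log2(FPKM + 1) minus the vehicle mean of the gene, with blue for lower and red for higher values. The R columns are mostly blue, R replicate 2 is paler and for a few genes faintly red, and Rrm2 is the one gene that is red in all 3 R libraries.

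The 6 falls lay near the threshold, and none of the 6 calls remained in every fit without 1 library. The number of members called was 0 without R replicate 1, R replicate 3, vehicle replicate 1 or vehicle replicate 2, was 1 (Pola1) without vehicle replicate 3, and was 8 without R replicate 2 (limma). Those 8 were all lower and comprised Pcna, Mcm3, Mcm5, Uhrf1, Mcm7, Lig1, Prim1 and Gins1. In the fits with 0 calls, 21, 22, 23 and 26 members, in that order of libraries, were lower at an unadjusted p of 0.05, and 1 was higher. With all 6 libraries, 12.6% of tested genes were lower at that p and 11.4% higher. The matching shares of tested genes in the fits without 1 library were not computed. Of all 11862 tested genes, 425, 506, 337 and 385 were called in the fits with 0 members called, in the same order. Without vehicle replicate 3 the number was 879, and without R replicate 2 it was 422. The sign was steadier than the call, and from 39 to 41 of the 42 log2 changes were negative in each fit without 1 library.

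**Figure D2:**
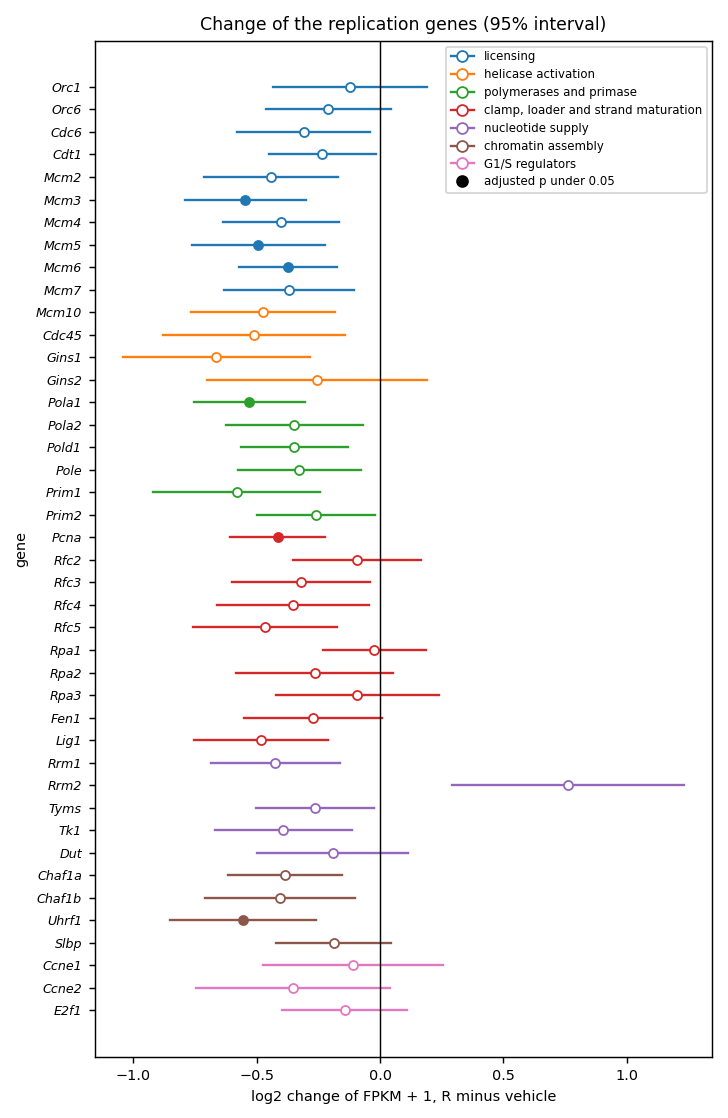
Log2 change of FPKM + 1 (R minus vehicle, horizontal axis) of each replication gene (vertical axis, coloured by step), with the 95% interval of limma as a line and a filled point where the adjusted p was under 0.05. Filled points mark Mcm3, Mcm5, Mcm6, Pola1, Pcna and Uhrf1, and only Rrm2 lies to the right of 0.

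Promoter sequence was examined because E2F factors are known to act through short strings near the start of these genes. RefSeq promoter windows (GRCm38.p6, from 250 bases before the annotated start to 50 bases from it on) were found for 35 of the 42 members. The strings TTTGGCGC, TTTCGCGC, TTTGGCGG and TTTCCCGC were searched on both strands, and they may overlap each other. At least 1 of the 4 was present in 15 of the 35 members (42.9%), against 5.21% of the 8664 tested genes with a window and 2.7% of the 27025 listed genes with a window. CCAAT was present in 60% of the members and 42.7% of the tested genes, and TTTGAA, the CHR string of many mitosis genes, in 8.57% of the members and 14% of the tested genes. These are matches of letters, and binding was not measured.

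Windows of Rrm2 and of 3 genes that fell and hold a string (Mcm5, Mcm6 and Pola1) are shown 5′ to 3′ on the strand of the gene. The E2F strings of either strand are in capitals.
Mcm5 (chr8:75109259-75109558, plus strand): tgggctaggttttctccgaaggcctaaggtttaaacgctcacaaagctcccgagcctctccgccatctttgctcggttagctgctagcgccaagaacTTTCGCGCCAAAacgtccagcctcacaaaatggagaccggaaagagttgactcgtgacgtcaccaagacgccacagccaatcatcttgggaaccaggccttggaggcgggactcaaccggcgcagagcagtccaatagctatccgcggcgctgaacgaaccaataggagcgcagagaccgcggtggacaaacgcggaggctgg
Mcm6 (chr1:128359656-128359955, minus strand): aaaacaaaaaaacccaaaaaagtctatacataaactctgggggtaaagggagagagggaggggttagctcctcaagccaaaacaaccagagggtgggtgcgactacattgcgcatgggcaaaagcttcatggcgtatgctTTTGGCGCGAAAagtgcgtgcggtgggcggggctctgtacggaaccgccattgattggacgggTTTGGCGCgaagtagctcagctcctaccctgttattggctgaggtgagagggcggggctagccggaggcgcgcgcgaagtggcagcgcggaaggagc
Pola1 (chrX:93632106-93632405, minus strand): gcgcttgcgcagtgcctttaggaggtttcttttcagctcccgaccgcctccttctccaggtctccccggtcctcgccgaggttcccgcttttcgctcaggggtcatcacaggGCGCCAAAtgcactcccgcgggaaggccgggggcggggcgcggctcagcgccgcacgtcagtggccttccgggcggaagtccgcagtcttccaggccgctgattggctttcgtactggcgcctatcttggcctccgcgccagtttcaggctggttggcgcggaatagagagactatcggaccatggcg
Rrm2 (chr12:24708004-24708303, plus strand): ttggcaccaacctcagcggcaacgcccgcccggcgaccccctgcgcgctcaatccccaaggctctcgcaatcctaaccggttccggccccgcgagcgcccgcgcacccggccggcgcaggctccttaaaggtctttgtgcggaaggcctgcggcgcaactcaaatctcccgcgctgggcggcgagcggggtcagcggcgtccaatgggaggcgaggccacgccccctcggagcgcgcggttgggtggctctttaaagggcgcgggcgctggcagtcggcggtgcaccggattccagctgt
In Mcm5 the run in capitals is a pair of overlapping strings on opposite strands, the leftmost base lying at -153 relative to the start. Mcm6 holds 3 matches, of which 2 overlap in the same way. Pola1 holds 1 match on the reverse strand, at -138. In the window of Rrm2 none of the 4 strings was present, and the same was true of Pcna, one of the genes that fell. Lacking the strings was not particular to Rrm2, since they were present in only 15 of the 35 members with a window. Mcm2, Mcm10, Cdc45, Prim1, Rrm1, Tk1 and Tyms, which had negative log2 changes, also held none. Whether the strings bear on the changes was not tested.

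All 10 licensing genes had a negative log2 change (median -0.37), against 50.7% of tested genes. Past the threshold fell 3 of the 10, against 4.43% of tested genes, and in 8 the R values lay wholly below the vehicle values, against 15.5%. Of these 8, 6 encode the subunits of the MCM ring, the motor that unwinds DNA. Mcm3 (chromosome 1, 20802968 to 20820312, in GENCODE M21 on GRCm38, as for all spans given here) had 22.2, 27.8 and 23.9 FPKM in R replicates 1, 2 and 3, against 36.9, 34 and 38.1 FPKM in vehicle replicates 1, 2 and 3. It averaged 24.6 ± 2.86 FPKM in R and 36.3 ± 2.12 FPKM in vehicle (SD, n = 3 each), a change of -32.2% (log2 change -0.55, SE 0.10, limma adjusted p = 0.0269). The groups did not overlap, and the lowest vehicle library stood above the highest R library.

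Mcm5 (chromosome 8, 75109569 to 75128439) had 21.5, 28.1 and 24.7 FPKM in R, against 35.2, 32.5 and 37.6 FPKM in vehicle, with no overlap (log2 change -0.49, SE 0.11, limma adjusted p = 0.0498). Mcm6 (chromosome 1, 128331590 to 128359664), of a level like that of Mcm3, had 28.9, 27.6 and 27.1 FPKM in R, against 36.9, 33.7 and 38.7 FPKM in vehicle (log2 change -0.37, SE 0.08, limma adjusted p = 0.0448). Its R libraries lay close together, without the rise in replicate 2 seen in Mcm3 and Mcm5. In limma, calls of Mcm3 and Mcm5 remained only without R replicate 2 among the 6 fits that left out 1 library (adjusted p up to 0.102 and 0.16 in the others), and that of Mcm6 in none of them (adjusted p up to 0.168).

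The other ring subunits, Mcm2, Mcm4 and Mcm7, had 10.7 ± 0.797, 17.6 ± 1.81 and 20.3 ± 2.83 FPKM in R, against 15 ± 2.05, 23.5 ± 1.31 and 26.3 ± 1.49 FPKM in vehicle (SD, n = 3 each). Their groups did not overlap either, and they did not pass (log2 changes -0.44, -0.40 and -0.37, limma adjusted p = 0.0682, 0.06 and 0.0998). Over the 6 subunits of the ring the log2 changes thus spanned -0.55 to -0.37. Among the loading factors, Cdt1, which brings the ring to the origin, had 22.3 ± 0.195 FPKM in R and 26.5 ± 2.71 FPKM in vehicle, and Cdc6, its partner ATPase, 2.74 ± 0.274 FPKM in R and 3.65 ± 0.46 FPKM in vehicle, without overlap and without passing (log2 changes -0.23 and -0.31, limma adjusted p = 0.178 and 0.158). Orc1 and Orc6, subunits of the origin recognition complex, overlapped between the groups and had the log2 changes nearest 0, -0.12 and -0.21 (limma adjusted p = 0.634 and 0.291).

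The 4 helicase activation genes had a median log2 change of -0.49, or -0.27 with a pseudocount of 5. In limma 0 of them passed, against 4.43% of tested genes that fell. At an unadjusted p of 0.05 in limma 3 of the 4 were lower, against 12.6% of tested genes. Gins1 encodes the PSF1 subunit of the GINS complex. It had 3.61, 5.98 and 4.16 FPKM in R, against 7.69, 7.08 and 8.41 FPKM in vehicle, a change of -40.7% that was the deepest of all members in size (log2 change -0.66, SE 0.16, limma adjusted p = 0.0556). The R libraries were all below the vehicle libraries but spread widely, replicate 2 being the highest, and without it the adjusted p was 0.0211. Mcm10, which helps to fire the loaded helicase, had 2.09, 2.83 and 2.22 FPKM in R, against 3.43, 3.5 and 4.15 FPKM in vehicle (log2 change -0.48, limma adjusted p = 0.0684). Cdc45 averaged 3.81 ± 0.937 FPKM in R and 5.78 ± 0.56 FPKM in vehicle, also without overlap (log2 change -0.51, limma adjusted p = 0.103).

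Gins2, which encodes another subunit of GINS, overlapped between the groups. It had 4.25, 7.03 and 4.09 FPKM in R, against 6.31, 5.35 and 6.89 FPKM in vehicle, and the R replicate 2 value was the highest of all 6 (log2 change -0.26, limma adjusted p = 0.465). Of its 4097 annotated exon bases 2758 overlap Gse1 on the opposite strand. Since the use of strand in counting is not given, its value is uncertain.

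Each of the 6 polymerase and primase genes was lower in every R library than in every vehicle library, as were 15.5% of tested genes. Past the threshold fell 1 of the 6, Pola1, against 4.43% of tested genes (step median -0.35). Pola1 (chromosome X, 93304767 to 93632155) encodes the catalytic subunit of polymerase alpha, which starts each new strand. It had 2.22, 2.12 and 2.13 FPKM in R, against 3.79, 3.31 and 3.59 FPKM in vehicle, a change of -39.5% (log2 change -0.53, SE 0.10, limma adjusted p = 0.0231). The groups did not overlap, and the 3 R libraries were nearly equal. Among the fits without 1 library its call remained without vehicle replicate 3 (adjusted p = 0.0491) and ended in the others (adjusted p up to 0.101).

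Prim1, the catalytic subunit of the primase, had 2.83, 4.08 and 2.99 FPKM in R, against 5.45, 4.66 and 6.1 FPKM in vehicle (log2 change -0.58, SE 0.14, limma adjusted p = 0.0592, or 0.0454 without R replicate 2). Its regulatory partner Prim2 averaged 3.15 ± 0.235 FPKM in R and 3.97 ± 0.362 FPKM in vehicle (log2 change -0.26). The more abundant genes of this step were Pold1, the catalytic subunit of polymerase delta, and Pola2, the accessory subunit of polymerase alpha. Pold1 had 10.5, 12.4 and 10.5 FPKM in R, against 14.6, 13.9 and 14.7 FPKM in vehicle (log2 change -0.35, limma adjusted p = 0.0709). Pola2 had 10.5, 12.8 and 9.69 FPKM in R, against 14.8, 12.9 and 14.9 FPKM in vehicle, the R replicate 2 value lying just under the lowest vehicle value (log2 change -0.35, limma adjusted p = 0.129). Pole, the catalytic subunit of polymerase epsilon, was low in both groups, with 2.12 ± 0.15 FPKM in R and 2.92 ± 0.273 FPKM in vehicle (log2 change -0.33, limma adjusted p = 0.114).

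The clamp and its partners were uneven. All 10 genes of this step had a negative log2 change (median -0.30), and 1 fell past the threshold (10%, against 4.43% of tested genes). In 5 the R values lay wholly below the vehicle values (50%, against 15.5% of tested genes), and the other 5 overlapped. Pcna (chromosome 2, 132249162 to 132253314), the sliding clamp that tethers the polymerases, had 91.6, 94.2 and 84.2 FPKM in R, against 122, 119 and 120 FPKM in vehicle, a change of -25.1% (log2 change -0.41, SE 0.08, limma adjusted p = 0.0305). It was the most abundant member in vehicle and the second, after Rrm2, in R. The SD was 5.16 FPKM in R and 1.56 FPKM in vehicle, and the lowest vehicle library stood well above the highest R library. Its call remained without R replicate 2 (adjusted p = 0.0458) and ended without each other library (adjusted p up to 0.129). The pseudogene Pcna-ps2, 99.23% identical over 781 bases, had at most 1.57 FPKM in R and 1.79 FPKM in vehicle.

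Lig1, the ligase that seals the lagging strand, had 15.2, 19 and 14.4 FPKM in R, against 22.3, 22 and 24.3 FPKM in vehicle (log2 change -0.48, SE 0.12, limma adjusted p = 0.0535, or 0.027 without R replicate 2). The flap nuclease gene Fen1, which acts just before it, averaged 1.84 ± 0.259 FPKM in R and 2.43 ± 0.234 FPKM in vehicle (log2 change -0.27, limma adjusted p = 0.219). Most of the Fen1 exon sequence, 1909 of 2422 bases, overlaps Gm10143 on the opposite strand, which makes its level uncertain. In the clamp loader, Rfc5, Rfc4, Rfc3 and Rfc2 had log2 changes of -0.47, -0.35, -0.32 and -0.09, none of which passed (limma adjusted p = 0.0706 to 0.669). Parts of the exons of Rfc2, Rfc5 and Rfc4 (952 of 6303, 499 of 4669 and 194 of 1533 bases) overlap Lat2, Wsb2 and Eif4a2. These lie on the opposite strand, which makes the levels of the 3 loader genes uncertain.

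Replication protein A coats single-stranded DNA in replication and repair. Its large subunit gene Rpa1 had 19.5, 22.4 and 20.7 FPKM in R, against 21.2, 19.9 and 22.5 FPKM in vehicle, and the groups overlapped (log2 change -0.02, 95% interval -0.23 to 0.19, limma adjusted p = 0.909). The smaller subunits Rpa2 and Rpa3 had log2 changes of -0.26 and -0.09 (limma adjusted p = 0.288 and 0.747).

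Among the steps of the members, nucleotide supply was the one in which 1 gene went against the others. Ribonucleotide reductase, which turns ribonucleotides into the deoxyribonucleotides of DNA, pairs a large subunit from Rrm1 with a small subunit from Rrm2. Rrm1 (chromosome 7, 102441695 to 102469771) had 8.34, 11 and 9.77 FPKM in R, against 13.8, 12.5 and 13.7 FPKM in vehicle (log2 change -0.42, SE 0.11, limma adjusted p = 0.0689). Rrm2 (chromosome 12, 24708241 to 24714146) had 87.1, 144 and 90.5 FPKM in R, against 56.8, 57 and 70.3 FPKM in vehicle (log2 change 0.76, SE 0.20, 95% interval 0.29 to 1.23, limma adjusted p = 0.0696). Each R library lay above each vehicle library for Rrm2 and below each for Rrm1. Rrm2 values averaged 107 ± 31.7 FPKM in R and 61.4 ± 7.75 FPKM in vehicle (SD, n = 3 each), or 74.4% higher in R, and rested on 4530 to 7155 reads in R and 2685 to 3899 reads in vehicle.

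Rrm2 did not pass in the fit over all genes and passed after quantile normalization (adjusted p = 0.0426), the one alternative of 13 in which it did. Its log2 change stayed positive throughout, between 0.53 and 0.89. Without R replicate 2, the highest library, it was 0.53 and the adjusted p was 0.0745. No annotated gene overlaps the exons of Rrm2, and the one similar transcript found, of the pseudogene Gm48455, was listed at 0 in every library. The ratio of Rrm2 to Rrm1 FPKM within a library, one of 9 ratios chosen after the values were seen, was 10.4, 13.1 and 9.26 in R, against 4.12, 4.58 and 5.15 in vehicle. An exact two-sided permutation test gave p = 0.1, the smallest that 3 against 3 libraries allow. That outcome was fixed in advance, because both genes already separated the groups in opposite directions, and it adds no support.

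**Figure D3:**
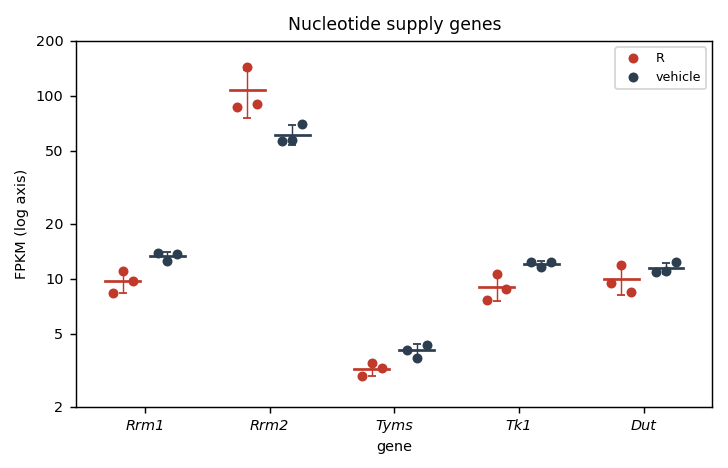
FPKM on a log axis of the 5 nucleotide supply genes in R (red, left of each pair) and vehicle (dark, right), with points for libraries, a bar for the mean and a line for the SD (n = 3). Rrm2 is higher in each R library, while Rrm1, Tyms and Tk1 are lower in each.

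The remaining genes of the step had, like Rrm1, a negative log2 change. Thymidine kinase, Tk1, which salvages thymidine, averaged 9.01 ± 1.46 FPKM in R and 12 ± 0.423 FPKM in vehicle (log2 change -0.39, limma adjusted p = 0.0966). Thymidylate synthase, Tyms, which makes thymidylate anew, averaged 3.21 ± 0.255 FPKM in R and 4.05 ± 0.332 FPKM in vehicle (log2 change -0.26, limma adjusted p = 0.17). Both were without overlap between the groups. Dut, which removes dUTP, overlapped (log2 change -0.19, limma adjusted p = 0.425). FPKM here are per kilobase of summed exons, 5198 bases for Tk1 and 11012 bases for Rrm1 in the reference annotation, so that the level of a gene with long, rarely used exons is understated beside that of others.

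Among the chromatin assembly genes 1 of 4 fell (against 4.43% of tested genes) and all 4 had a negative log2 change, against 50.7% (median -0.40, or -0.24 with a pseudocount of 5). Uhrf1 (chromosome 17, 56303321 to 56323486), which reads hemimethylated DNA behind the fork and recruits the maintenance methyltransferase, had 15.5, 20.6 and 18 FPKM in R, against 28.1, 23.8 and 28.8 FPKM in vehicle, a change of -33% (log2 change -0.56, SE 0.13, limma adjusted p = 0.0452). Every R library was below every vehicle library. Its call remained without R replicate 2 (adjusted p = 0.048) and ended without each other library (adjusted p up to 0.159). The pseudogene Gm5648, 98.3% identical over 1590 bases, had at most 0.279 FPKM.

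Chaf1a, the large subunit of chromatin assembly factor 1, had 3.5, 3.89 and 3.72 FPKM in R, against 5.3, 4.64 and 5.55 FPKM in vehicle (log2 change -0.39, limma adjusted p = 0.0641), and 4648 of its 8854 exon bases overlap Ubxn6 on the opposite strand, which makes its level uncertain. Chaf1b, its partner, averaged 5.21 ± 0.845 FPKM in R and 7.21 ± 0.814 FPKM in vehicle (log2 change -0.41, limma adjusted p = 0.112). Slbp, which binds the stem-loop of histone mRNA, had 6.56, 6.97 and 7.15 FPKM in R, against 8.13, 7.11 and 8.8 FPKM in vehicle. Its groups touched at one library (log2 change -0.19, limma adjusted p = 0.301).

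The 3 regulators of the G1/S switch had a median of -0.14, and all 3 overlapped between the groups, as did 8385 of the 11862 tested genes. E2f1, an activating transcription factor of the replication genes, had 19.2, 22.1 and 20.2 FPKM in R, against 23.6, 19.9 and 24.9 FPKM in vehicle (log2 change -0.14, 95% interval -0.40 to 0.11, limma adjusted p = 0.474). Ccne1, a cyclin that drives CDK2, had 8, 12.1 and 9.73 FPKM in R, against 10.3, 9.52 and 12.3 FPKM in vehicle (log2 change -0.11, limma adjusted p = 0.729). Its relative Ccne2 had 1.99, 3.53 and 2.53 FPKM in R, against 3.3, 3.48 and 4.16 FPKM in vehicle (log2 change -0.35, limma adjusted p = 0.258). Of the 3495 exon bases of Ccne2, 609 overlap Ints8 on the opposite strand, which makes its level uncertain. No change of these genes was detectable, and whether they differ from the replication machinery was not tested.

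Most members had the same library highest or lowest in a group. In R, replicate 2 was the highest of the 3 libraries in 34 of 42 members (81%), against 37.5% of all tested genes. In vehicle, replicate 2 was the lowest in 35 members (83.3%, against 29.5% of tested genes), and replicate 3 the highest in 32 (76.2%, against 36.3%). The median over members of the difference to the vehicle mean was -0.43, -0.2 and -0.41 in R replicates 1, 2 and 3, against 0.02, -0.1 and 0.1 in vehicle replicates 1, 2 and 3, on the log2 scale. The same medians over all tested genes were between -0.01 and 0.01 in each library. R replicate 2 was thus the R library nearest to vehicle, and its median lay below that of each vehicle library.

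**Figure D4:**
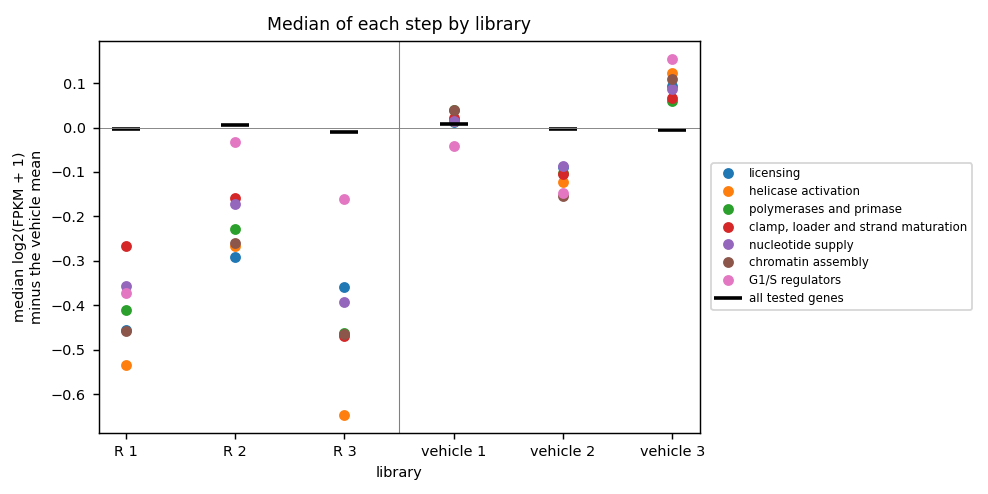
Median over the genes of each step of log2(FPKM + 1) minus the vehicle mean (vertical axis) in each library (horizontal axis), with black bars for all tested genes. The steps run from -0.16 to -0.65 in R replicate 3 and from -0.03 to -0.29 in R replicate 2, and vehicle replicate 2 is the lowest of the vehicle libraries in each step.

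Of 44 other replication genes that passed the filter (of 45 listed, Dscc1 being too low), 37 had a negative log2 change, against 50.7% of all tested genes (median -0.29). Of the 44, 6 fell (13.6%, against 4.43% of all tested genes) and 0 rose (against 2.39%). Dck, the kinase that salvages deoxycytidine, had the smallest adjusted p of them, with 10.1, 9.51 and 10.5 FPKM in R, against 22.3, 18.9 and 20.1 FPKM in vehicle (log2 change -0.96, SE 0.09, limma adjusted p = 0.00172). Samhd1, a deoxynucleotide hydrolase that interferon also induces, had 16.5, 17.4 and 18.9 FPKM in R, against 49.2, 48.4 and 33.5 FPKM in vehicle (log2 change -1.25, SE 0.15, limma adjusted p = 0.0053). Both act on the nucleotide pool, and both passed in each of the 13 alternative fits, as none of the 42 members did. Not every other gene of nucleotide supply was lower. Rrm2b, Ctps and Dtymk, named after their values were seen, had log2 changes of 0.19, 0.28 and 0.08. None of them passed (limma adjusted p = 0.393, 0.332 and 0.778).

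Asf1b, a histone chaperone, fell to 12.2 ± 1.71 FPKM in R, against 17.7 ± 1.17 FPKM in vehicle (limma adjusted p = 0.043). Its call remained without R replicate 2 alone among the fits that left out 1 library. Also lower past the threshold were Timeless, a fork protection factor, and Dna2, a helicase and nuclease (log2 changes -0.59 and -0.45, limma adjusted p = 0.0466 and 0.0495), named after their values were seen. Without 1 library, Timeless passed only when R replicate 2 was left out and Dna2 in no case (adjusted p up to 0.134 and 0.191). Pold4, the smallest subunit of polymerase delta, had a positive log2 change, unlike Pold1, with 57.8, 76.6 and 51.3 FPKM in R, against 41.7, 38.8 and 39.5 FPKM in vehicle, and did not pass (log2 change 0.60, limma adjusted p = 0.056). It was chosen for mention after its values were seen, and it passed without R replicate 3, with the filter of 5 FPKM (limma adjusted p = 0.0455 in both) and after quantile normalization (0.0301).

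The other genes of G1/S control showed no common sign. Of 34, 20 had a negative and 14 a positive log2 change (median -0.09). Of the 34, 2 fell, a share of 5.88% near the 4.43% of all tested genes, and 0 rose, against 2.39%. The 2 that fell were E2f2, with 3.5 ± 0.301 FPKM in R and 5.6 ± 0.481 FPKM in vehicle, and E2f8, with 3.36 ± 0.12 FPKM in R and 4.89 ± 0.416 FPKM in vehicle (log2 changes -0.55 and -0.43, limma adjusted p = 0.0247 and 0.0421). E2f2 is a transcriptional activator and E2f8 a repressor. The call of E2f8 ended in each fit that left out 1 library (adjusted p up to 0.166), and that of E2f2 ended in 4 of the 6 (adjusted p up to 0.1). Of the genes upstream of E2F, all 4 of them named after their values were seen, the cyclin Ccnd2 had 43.7 ± 11.5 FPKM in R and 26.1 ± 3.27 FPKM in vehicle, and the CDK inhibitor Cdkn1c 4.19 ± 2.3 FPKM in R and 1.04 ± 0.48 FPKM in vehicle, neither of which passed (log2 changes 0.70 and 1.29, limma adjusted p = 0.0783 and 0.053). Ccnd2 passed without R replicate 1 (adjusted p = 0.038), and Cdkn1c without vehicle replicate 3 (adjusted p = 0.0491) and with a pseudocount of 0.1 (adjusted p = 0.0457). The p21 gene Cdkn1a, with 78.4 ± 6.17 FPKM in R and 76.2 ± 9.66 FPKM in vehicle, and Myc, with 26.4 ± 1.44 FPKM in R and 26.7 ± 4.04 FPKM in vehicle, overlapped.

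All 20 mitosis genes listed had a negative log2 change (median -0.46), of which 8 fell (40%, against 4.43% of all tested genes), 12 did not pass and 0 rose. Without a filter on low values 1 of the 20 passed. Top2a, the topoisomerase of S phase and mitosis, had 14.6, 17.4 and 16.4 FPKM in R, against 27.2, 24.6 and 26.9 FPKM in vehicle (log2 change -0.67, SE 0.09, limma adjusted p = 0.0088), and passed in each of the 13 alternatives. The checkpoint kinase gene Bub1 had a log2 change of -0.78, Bub1b of -0.55 and the spindle motor gene Kif11 of -0.57 (limma adjusted p = 0.0228, 0.028 and 0.0284). The number of mitosis genes called was 1 without R replicate 1 or vehicle replicate 1, 2 without vehicle replicate 2 or 3, 4 without R replicate 3 and 6 without R replicate 2. Over all 11862 tested genes, 337 to 879 were called in these fits.

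**Figure D5:**
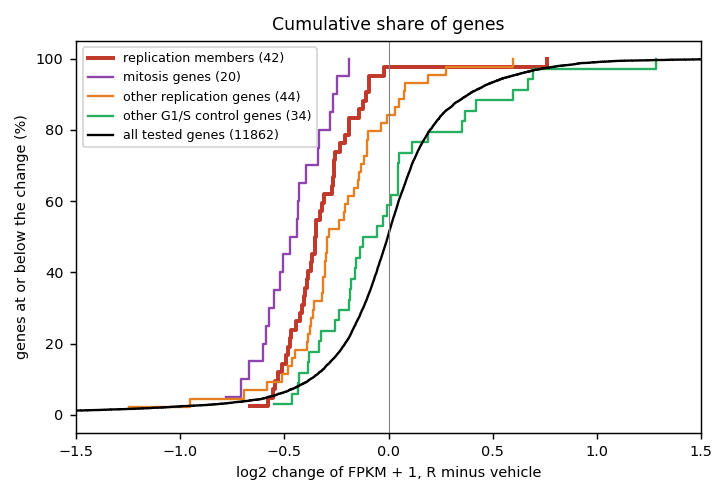
Share of genes (vertical axis, percent) with a log2 change of FPKM + 1, R minus vehicle, at or below the value on the horizontal axis, which leaves out the tails of all tested genes (-6.11 to 2.17), for the 42 replication members, the other lists and all 11862 tested genes. At the medians the curve of the replication members lies to the left of that of all tested genes (-0.35 and -0.0037). There it runs between those of mitosis genes (-0.46) and other replication genes (-0.29). Curves cross in the left tail, where other replication genes reach -1.25 and the members -0.66. The other G1/S control genes spread over both sides of 0.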

How the data were processed

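RNA of 3 R-treated and 3 vehicle-treated libraries was sequenced, and sample titles gave group and replicate. The authors deposited 1 table of FPKM per gene and library, per the file headers. GRCm38 (mm10) and edgeR 3.18.1 are named in the submitters' processing notes, while an aligner, a counter, an annotation and the use of strand are not stated there. The last line of the table broke off and was left out. Symbols, gene positions and exon lengths were taken from GENCODE M21 (GRCm38).

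Depth was estimated from the low FPKM: multiplied by exon length, 98.3% to 98.4% of values under 20.5 reads came out whole for one step per library (tolerance 0.02). Reads derived so carry counting error only.

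The test was limma 3.58.1 (R 4.3.3) on log2(FPKM + 1), comparing the 2 groups with a trended moderation, over 11862 genes with at least 1 FPKM in at least 3 libraries. P-values were adjusted by Benjamini-Hochberg over all of them, with a threshold of 0.05, and intervals are at 95%. The scale understates changes of low genes. Alternatives were pseudocounts of 0.1 and 5, no filter, a filter of 5 FPKM, quantile normalization, equal medians, a replicate block and leaving out each library. Similar transcripts were sought with blastn 2.17.0 (at least 95% identity over 200 bases).

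The members and lists were chosen with earlier results of these data known, and no p-value was adjusted over a list alone. Full statistics are given for members that passed and, in each step, for the 2 of highest mean and the 2 of smallest p. From each other list up to 4 genes that passed are named by smallest p, and any further gene was chosen after its values were seen. A gene that the rule would name is not reported here.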

Additional observations from a re-analysis of the deposited data

How the results depend on the processing

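Depth limits the genes with few reads most, such as Fen1 with 69 to 123 and Orc1 with 72 to 103 reads per library, and 3 libraries per group limit all. Over the 13 alternatives, 39 of the 42 replication genes kept the sign of their log2 change. Of 535 values, 474 kept sign and side of the threshold, 47 lost the call, 9 gained it and 5 changed sign. The log2 change of Rpa1 was 0.011 with equal medians and -0.0743 to 0.021 when 1 library was left out, where Rpa3 ranged from -0.21 to 0.0184 and Ccne1 from -0.25 to 0.023. Among all genes 809 were called, against 344 without a filter, where 25575 genes were tested, and 337 to 879 with 1 library left out. Of the members 6 were called, against 0 without a filter and 3 with equal medians (limma, with 28 and 24 lower at an unadjusted p of 0.05), and 0 to 8 with 1 library left out. The median over members was -0.35, against -0.22 with a pseudocount of 5, which shrinks changes by construction, and -0.43 to -0.31 with 1 library left out. The 6 other replication genes became 2 without a filter, 3 with equal medians and 2 to 6 with 1 library left out. For the 2 other G1/S control genes the counts were 4 with a pseudocount of 0.1, 0 without a filter, 1 with quantile normalization, 1 with equal medians and 0 to 3 with 1 library left out. The 8 mitosis genes became 1 without a filter and 1 to 6 with 1 library left out. Mcm4, Gins1 and Lig1 passed with the stricter filter (adjusted p = 0.0486, 0.0471 and 0.0428). Where no cause is given, the cause was not tested. Replicate numbers are shared between the groups, and the labels name no pairing. The deviations of same-numbered libraries correlated at 0.14, -0.01 and -0.03 over the tested genes. Those of differently numbered libraries correlated at -0.14 to 0.14. Such values cannot decide whether the libraries were paired, since a small shared effect could leave them unchanged. With the number as a replicate block the counts were 756 genes, 0 members (23 lower at an unadjusted p of 0.05 in limma), 2 other replication genes, 2 other G1/S control genes and 4 mitosis genes. Shares of all tested genes lower at an unadjusted p of 0.05 were not computed without a filter, with equal medians or with the block. The 28, 24 and 23 members of those fits thus have no matching share to be set against.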

Other observations

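Levels of partner genes within a library were compared in 9 pairs chosen after their values were seen. In 7 of the 9 the exact two-sided permutation test gave p = 0.1, the smallest it can give with 3 against 3 libraries (0.13 after Benjamini-Hochberg adjustment over the 9). For Rrm2 to Rrm1 that p was fixed in advance by the opposite separation of the 2 genes. Besides the ratio of Rrm2 to Rrm1, the ratio of Gins1 to Gins2 was 0.905 ± 0.0966 in R and 1.25 ± 0.0589 in vehicle (uncertain because of the overlap of Gins2 with Gse1), and that of Prim1 to Prim2 was 1.04 ± 0.134 in R and 1.36 ± 0.0772 in vehicle (SD, n = 3 each). The ratio of Ccne1 to Ccne2 was 3.76 ± 0.315 in R and 2.94 ± 0.195 in vehicle, uncertain because of the overlap of Ccne2 with Ints8. For Chaf1a to Chaf1b, subunits of 1 complex, it was 0.72 ± 0.0938 in R and 0.718 ± 0.0162 in vehicle (exact permutation p = 0.9), uncertain because of the overlap of Chaf1a with Ubxn6.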
